A study of Rattus norvegicus with 2 samples.

Results

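Growth hormone receptor signalling in regenerating rat liver was followed here through 8 genes: the receptors Ghr and Prlr, the transcription factors Stat5a and Stat5b, the feedback inhibitors Cish, Socs1 and Socs2, and Obp3, an alpha-2u globulin. The members were all probe sets that the platform annotation pairs with one of these symbols alone. That gave 14 probe sets for the 8 genes, out of 20826 probe sets for 14217 named genes. The rats had undergone partial hepatectomy (PH), in which a surgeon takes out some of the liver, and the part left behind was collected at 24 h. In one group, 1/3PH, the smaller fraction had been taken, and in the other, 2/3PH, the larger. Each was 1 pool of RNA from 3 rats on 1 array, and both groups had been operated on, with no unoperated liver measured. The design text describes strong DNA replication after 2/3PH and little after 1/3PH. The labels do not state the sex, strain or age of the rats.

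Growth hormone, released by the pituitary, binds a pair of receptor chains on the hepatocyte, which activates the kinase Jak2. Jak2 phosphorylates Stat5a and Stat5b, which pair, enter the nucleus and bind the sequence TTCNNNGAA near target genes. Cish and the Socs genes are among those targets, and their proteins bind the receptor or the kinase and damp the signal. In rat liver, the pulsed growth hormone pattern of males is known to drive male-specific genes, including alpha-2u globulins.

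The promoter of Cish carried 4 copies of TTCNNNGAA, the Stat5 consensus, and is shown because Cish also had the largest difference of the members above the floor. The Socs1 promoter carried 1 copy and that of Obp3 none, and both are shown for comparison. Sequences are from RefSeq (build GRCr8), run from 250 bases before to 50 bases after the annotated start, and read 5′ to 3′ on the gene's strand. Capitals mark matches to TTCNNNGAA, a motif that reads the same on both strands, so 1 search covered both. The windows are chr8:116850719-116851018 (plus strand) for Cish, chr10:5389324-5389623 (plus strand) for Socs1 and chr5:79640626-79640925 (minus strand) for Obp3.
Cish: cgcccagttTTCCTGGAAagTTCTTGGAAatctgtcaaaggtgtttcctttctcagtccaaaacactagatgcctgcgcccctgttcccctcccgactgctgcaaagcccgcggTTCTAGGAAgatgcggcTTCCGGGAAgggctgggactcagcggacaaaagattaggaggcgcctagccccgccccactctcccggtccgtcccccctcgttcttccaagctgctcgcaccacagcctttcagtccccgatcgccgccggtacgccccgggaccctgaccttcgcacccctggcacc
Socs1: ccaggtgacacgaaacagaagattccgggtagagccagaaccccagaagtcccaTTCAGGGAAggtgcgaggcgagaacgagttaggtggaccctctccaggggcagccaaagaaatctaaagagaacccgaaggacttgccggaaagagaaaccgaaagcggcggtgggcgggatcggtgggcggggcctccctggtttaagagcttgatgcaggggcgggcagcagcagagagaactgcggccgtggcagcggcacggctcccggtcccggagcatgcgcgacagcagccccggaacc
Obp3: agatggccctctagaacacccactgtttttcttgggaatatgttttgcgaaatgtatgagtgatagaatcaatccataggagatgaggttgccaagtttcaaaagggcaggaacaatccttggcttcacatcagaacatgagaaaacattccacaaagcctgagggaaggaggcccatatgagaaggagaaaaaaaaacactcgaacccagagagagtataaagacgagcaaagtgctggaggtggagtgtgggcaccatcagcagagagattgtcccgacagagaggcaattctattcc

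The Cish matches began 241, 230, 136 and 119 bases before the start and did not overlap. They read TTCCTGGAA, TTCTTGGAA, TTCTAGGAA and TTCCGGGAA in that order. The Socs1 match, TTCAGGGAA, began 196 bases before the start. Prlr had 2 annotated starts, and the window of 1 of them held TTCTAGGAA, 176 bases before the start. The windows of Ghr, Stat5a and Stat5b held no match, and Socs2 had no entry in the promoter table. Of 33469 promoter windows of the same length in the rat table, 2970 (8.87%) held at least 1 match, 183 (0.547%) at least 2 and 2 (0.00598%) at least 4. Cish was 1 of those 2. A match describes the letters in this window and is not evidence that Stat5 was bound there.

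**Figure D1:**
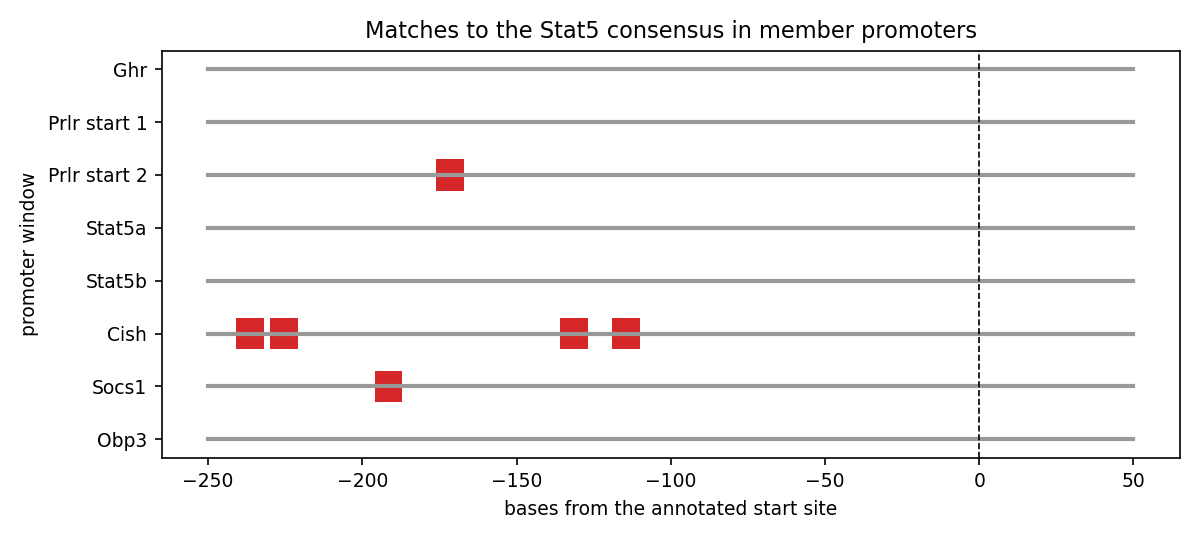
Positions of matches to the Stat5 consensus TTCNNNGAA (red blocks, drawn at their length) in the promoter windows of 7 members, in bases from the annotated start (dashed line). Cish has 4 matches in 2 close pairs, Socs1 has 1 and the second Prlr start has 1, whereas the windows of Ghr, Stat5a, Stat5b and Obp3 are empty.

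The values are log2 signals as deposited, and a signal is 2 to that power. The quantity compared is the log2 ratio, 2/3PH minus 1/3PH, and a gene "higher" or "lower" is so on the 2/3PH array. A floor was set at 6.48, a signal of 89.2, which is the midpoint of the probe sets (controls left out) ranked by their mean over both arrays. A gene took the value of its brightest probe set, counted as above the floor if its mean log2 signal reached it, and was called at a difference of 2-fold. With 1 array per group there was no replicate error, no test was possible and no p-value is given, so the number of arrays limits the precision. As a measure of spread within the arrays, the ratios of different probe sets of 1 gene had a pooled SD of 0.33 (log2) over 2067 genes. This spread mixes error with any difference between the transcripts that those probe sets read. Of 9514 genes above the floor, 350 (3.68%) were called lower and 582 (6.12%) higher, so 62.4% of the calls were higher. That share was 82.2% when the arrays were scaled to the hybridisation controls and 92.9% when scaled to the poly-A controls, which moved the median ratio of all genes up by 0.24 and 0.44. The 9 hepatocyte markers with a probe set, among them Alb and Ttr, were all above the floor.

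Cish and Obp3 were lower after 2/3PH, Socs2 was lower at dim signals, and the receptors and both Stat5 genes differed by less than 2-fold. Of the 8 members, 6 were above the floor, of which 2 were called lower, against 3.68% of all genes, and none was called higher, against 6.12%. Both calls came with ratios near the low end of all genes. The median log2 ratio of the 6 was -0.20, against 0.03 for all genes above the floor. Over the 10 probe sets above the floor, 8 had ratios below 0, against 47.4% of all such named probe sets, and 3 were at least 2-fold lower, against 3.71%. None of the 10 was 2-fold higher, against 5.86%. The 3 lower ones belong to 2 genes, since both Obp3 probe sets are among them. Likewise, the 8 include both Ghr probe sets and the dimmer ones of Prlr, and probe sets of 1 gene are not independent. By brightest probe set, Ghr, Stat5a, Cish and Obp3 were below 0, and Prlr and Stat5b above it. At a limit of 3-fold, Cish and Obp3 were still called lower, against 0.999% of all genes, and none was higher, against 2.24%. At 1.5-fold the same 2 were lower, against 12.0%, and Prlr was higher, against 15.8%.

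**Figure D2:**
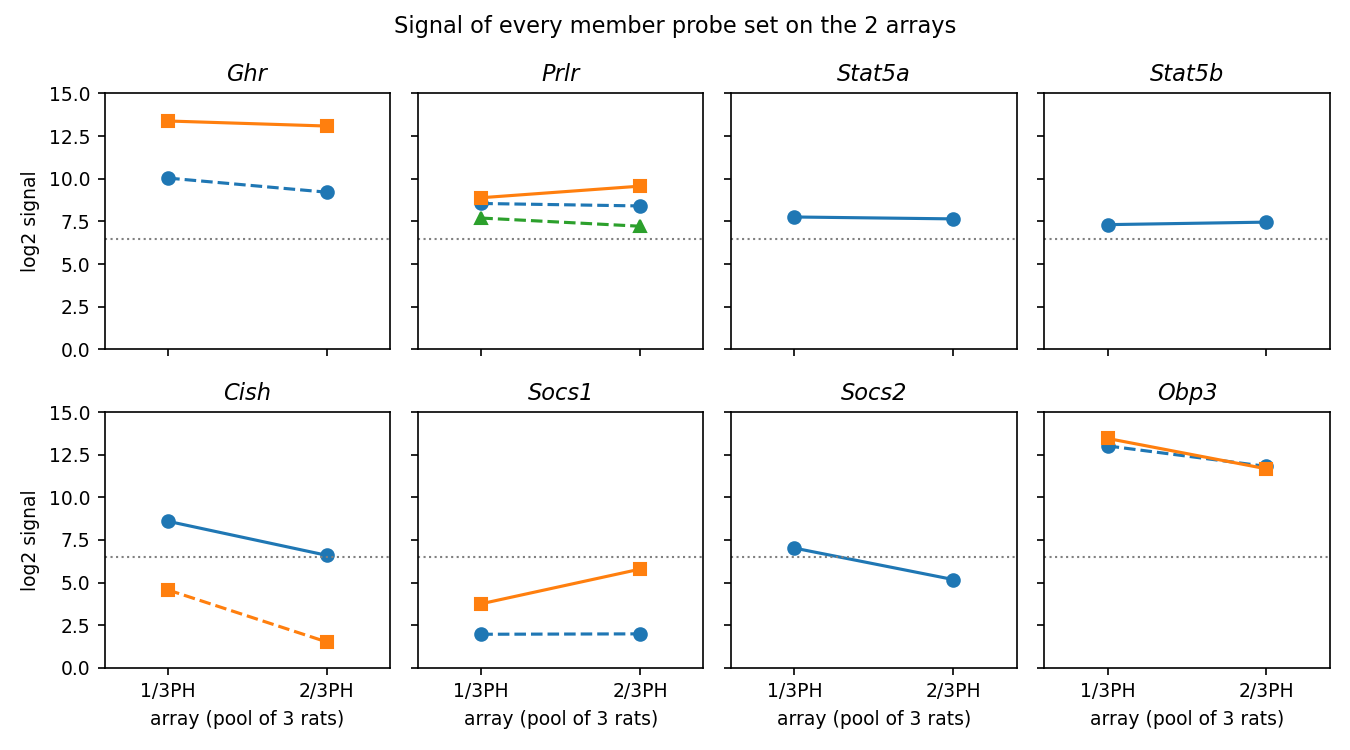
Log2 signal of each of the 14 member probe sets on the 1/3PH and 2/3PH arrays, 1 panel per gene, with 1 line per probe set; a solid line is the probe set that represents the gene and the dotted line is the floor of 6.48. Both lines slope down for Cish, Obp3 and Ghr, and the 3 lines of Prlr diverge. The dimmer Cish line and both Socs1 lines stay under the floor.

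Ghr, the growth hormone receptor, was lower by under 2-fold in both of its probe sets. Its brightest probe set read 10716 after 1/3PH and 8730 after 2/3PH, which is a log2 ratio of -0.30. Its other probe set read 1053 and 593, a log2 ratio of -0.83, or 1.77-fold lower. The 2 ratios differed by 0.53, within the 90th percentile, 0.84, of that range among genes with more than 1 probe set over the floor, and under poly-A scaling the brightest one turned to 0.15. In such bulk RNA, fewer cells of a type and less RNA per cell cannot be told apart.

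Prlr, the prolactin receptor, which also signals through Jak2 and Stat5, gave no single direction. The brightest of its 3 probe sets read 474 after 1/3PH and 758 after 2/3PH, 1.60-fold higher. The others read 375 and 339 (log2 ratio -0.14) and 207 and 149 (log2 ratio -0.48). The range between them, 1.16, was above the 95th percentile of that range, 1.03, among genes that had more than 1 probe set there. Which Prlr transcripts each probe set detects was not examined here. The call for Prlr depended on the choice: it passed 2-fold higher under poly-A scaling, at 1.12, and was -0.14 without the probe sets marked for shared or alternative transcripts.

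Stat5a and Stat5b, the paired transcription factors of the pathway, differed by little, and as deposited their ratios were nearest to 0 of the members' brightest probe sets. They are neighbouring genes on rat chromosome 10, with Stat3 next to Stat5a. Stat5a read 217 after 1/3PH and 201 after 2/3PH, a ratio of -0.11 on the log2 scale. Stat5b read 159 and 176, a log2 ratio of 0.15. As deposited, both ratios were within 0.33, the pooled SD between probe sets of 1 gene, which does not measure error between pools or arrays. The sign of Stat5a turned under both spike-in scalings (hybridisation and poly-A controls), to 0.12 and 0.33, where Ghr, at -0.06 and 0.15, was nearer to 0. Under the same scalings Stat5b was 0.38 and 0.59. The arrays measured transcripts, so phosphorylation of either protein was not observed.

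Cish, the inhibitor that binds the activated receptor, had the lowest ratio of the members above the floor. Its brighter probe set read 386 after 1/3PH and 96.8 after 2/3PH, which is 3.99-fold lower. The 2/3PH signal was thus just above the floor signal of 89.2. Of the 9514 genes above the floor, 33 had a lower ratio. Among 1582 genes whose mean log2 signal lay within 0.5 of it, 3 (0.19%) had a ratio as low. The second Cish probe set read 23.7 and 2.86, both under the floor, so neither a direction nor a fold is taken from it.

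Socs2, the feedback inhibitor whose loss in mice causes overgrowth, was lower in its only probe set. It read 130 after 1/3PH, above the floor, and 36.2 after 2/3PH, under it. With the floor in place of the dim value, the difference was at least 1.46-fold; the log2 ratio as measured was -1.84, which rests on a signal under the floor. Its mean signal missed the floor, so it is not in the counts of members called. Without any floor it would be 1 of 3 members called lower, beside Cish and Obp3, where 8.53% of all 14217 genes were, and Socs1 would be called higher, where 11.7% were.

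Socs1, which inhibits Jak kinases directly and is induced by interferon-gamma, was not measurable at these signals. Its brighter probe set read 13.5 after 1/3PH and 55.2 after 2/3PH, and the other 3.91 and 3.98. All 4 values were under the floor signal, so no fold is given. At that brightness 25.7% of 1189 genes of like mean signal lay 2-fold or more higher as measured.

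Obp3, an alpha-2u globulin that male rat liver secretes and that reaches the urine, was lower by both of its probe sets. Its brightest probe set read 11198 after 1/3PH and 3264 after 2/3PH, 3.43-fold lower. Its other probe set read 8270 and 3601, a log2 ratio of -1.20, or 2.30-fold lower. Both signals lay far above the floor on both arrays, and 60 of 9514 genes had a lower ratio than the brightest probe set. Among 534 genes of like mean signal, 6 (1.12%) had a ratio as low. The suffixes of both probe sets mark shared or alternative transcripts, and the alpha-2u globulin genes are near-identical, so the signal may include relatives. Mup5 was the 1 other gene of that family with a named probe set among 9 entries. Its brightest probe set read 4401 and 2981, a log2 ratio of -0.56, or -0.12 under poly-A scaling. Its 3 probe sets ranged from -0.63 to -0.24 as deposited.

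**Figure D3:**
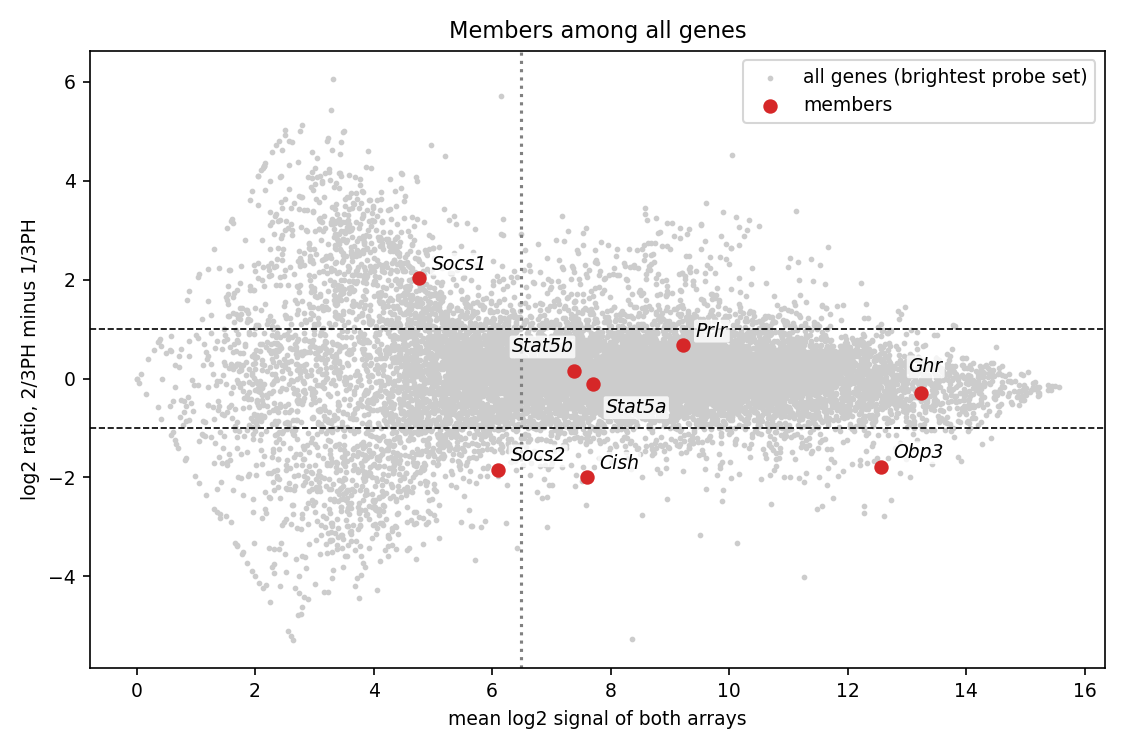
Log2 ratio (2/3PH minus 1/3PH) against mean log2 signal for 14217 genes (grey) and the 8 members (red); dashed lines are 2-fold and the dotted line is the floor. Cish and Obp3 lie under the lower 2-fold line to the right of the floor, Socs2 under it just to the left, and Socs1 above the upper line within the wide scatter of dim genes.

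Among the other genes of the growth hormone signalling list, the share called lower was near that of all genes. Of 31 with a named probe set, 24 were above the floor, of which 1 was called lower, against 3.68% of all genes, and none higher, against 6.12%. Their median log2 ratio was -0.0046, against 0.03 for all genes. Jak2, the kinase bound to the receptor, read 161 after 1/3PH and 81.3 after 2/3PH, under the floor, at least 1.81-fold lower. As measured its log2 ratio was -0.99, just short of the 2-fold limit, so it was not called. Jak3, a kinase of lymphoid and myeloid cells, was the gene called, with signals of 184 and 78.0, at least 2.06-fold lower. Its 2/3PH signal was under the floor, so its mean reached the floor through the 1/3PH array alone. Socs3, an inhibitor induced chiefly by cytokines of the interleukin-6 family, read 56.9 and 36.9, both under the floor. The remaining 22 above the floor lay between -0.37 and 0.45, including Stat3 at -0.23 and Ptpn11, a phosphatase that binds the receptor complex, at 0.42. Growth hormone (Gh1) and prolactin (Prl), made in the pituitary, read between 4.73 and 6.32, all under the floor.

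Known targets of growth hormone and Stat5 in liver were mostly lower. The list does not separate targets that the hormone raises from those it lowers, so its counts give no direction of signalling. Of 17 above the floor, 15 had ratios below 0, against 47.1% of all genes. Of the 17, 4 were called lower, against 3.68%, and none higher, against 6.12%. Their median log2 ratio was -0.68, against 0.03 for all genes. Under poly-A scaling it was -0.24, against 0.48 for all genes, and 13 were below 0. Many of these targets were bright, and the shares over all genes are not matched for brightness. Among 534 genes near the mean signal of Obp3, 5.43% were 2-fold lower and 1.87% higher. Among 346 near that of Ghr, the shares were 4.62% and 1.16%. Cyp2c11, the male-specific steroid hydroxylase, had the lowest ratio of the targets, with signals of 12620 and 1930, a log2 ratio of -2.71. Igfbp3, the main carrier of IGF1 in blood, read 2268 and 756, and Igfals, which completes that carrier complex, 2513 and 930, 2.70-fold lower. Cyp3a2, another male-predominant enzyme, was 2.10-fold lower. Igf1, the chief growth hormone effector made by liver, differed less, with 3 probe sets from -0.62 to -0.27. The probe set named for the female-specific Cyp2c12 was lower too, at -0.93, with signals of 25984 and 13596. Cytochrome P450 probe sets of a family can share sequence, so it may also read related transcripts. Which transcripts it detects was not examined. The list was chosen with earlier results on these genes known and gives no independent support for its direction.

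**Figure D4:**
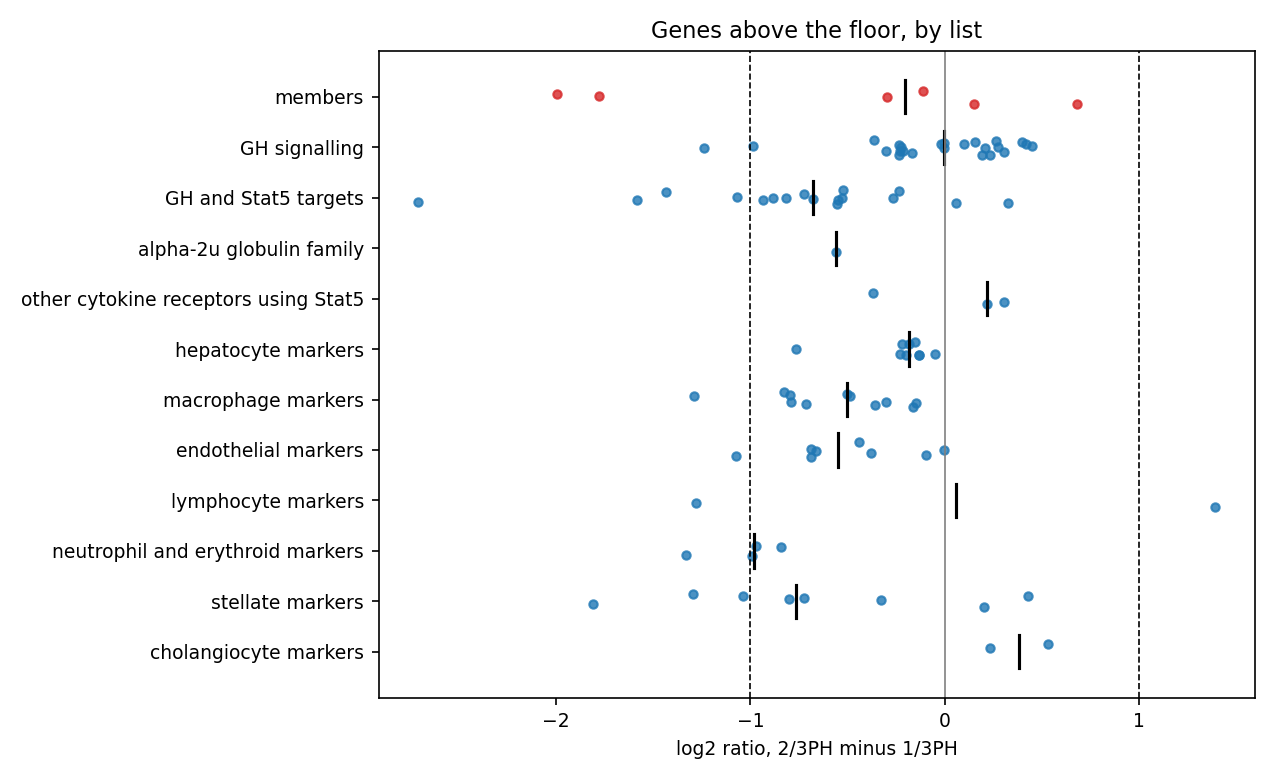
Log2 ratios (2/3PH minus 1/3PH) of genes above the floor in the 6 measurable members (red) and in the gene lists (blue), with 1 point per gene, a black bar at each median and dashed lines at 2-fold. The growth hormone signalling genes centre on 0, whereas 15 of 17 growth hormone and Stat5 targets lie below 0.

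Other receptors that use Stat5 were mostly dim. Of 9 cytokine receptor genes with a named probe set, such as Epor and Il2ra, 6 were under the floor and the other 3 lay between -0.37 and 0.30. Because Cish, Stat5a and Jak3 are also expressed by blood and immune cells, the markers of those cells are given beside them. Of 11 macrophage markers above the floor, all had ratios below 0, against 47.1% of all genes. Of the 11, 1 was called lower, Lyz2 at -1.29, against 3.68% of all genes. Their median log2 ratio was -0.50, against 0.03 for all genes, and their summed signal 22317 after 1/3PH and 14967 after 2/3PH. Under poly-A scaling 7 of the 11 were below 0. Their median was then -0.06, against 0.48 for all genes, since that scaling raises every ratio alike. The 4 neutrophil and erythroid markers above the floor had ratios below 0 as deposited, against 47.1% of all genes. All 4 were also below 0 under both spike-in scalings. Their median was -0.98 as deposited, and 1 was called lower, S100a9 at -1.33, against 3.68% of all genes. Their summed signals were 27124 and 13511, of which the globin gene Hbb, an erythroid marker, made up 24196 and 12168. Of 10 lymphocyte markers, 8 were under the floor, and the other 2 reached it through 1 array each. Gzma read 151 and 62.3, at least 1.69-fold lower, and Zap70 69.0 and 180.7, at least 2.03-fold higher. By their ratios as measured, -1.28 and 1.39, Gzma was called lower and Zap70 higher, against 3.68% and 6.12% of all genes. Their summed signals were 220.1 and 243. Of 55 listed markers with a probe set, 0 read 0 on an array. The part of these cells in the differences of Cish, Socs2 and Jak3 was not tested. Hepatocyte markers differed less by their median as deposited, -0.18, though the lowest was -0.77. All 9 were below 0, against 47.1% of all genes, and their summed signals were 295996 and 260404. Under poly-A scaling their median was 0.26, against 0.48 for all genes, with 1 of the 9 below 0. Of 8 endothelial markers, 8 had ratios below 0, against 47.1% of all genes, with a median of -0.55. Under poly-A scaling 4 were below 0, with a median of -0.11, against 0.48 for all genes. Of the 8, 1 was called lower, against 3.68%: Kdr, at -1.08 in its brighter probe set and -0.43 in its other. Of 8 stellate markers, 6 had ratios below 0, against 47.1% of all genes, with a median of -0.76. Of the 8, 3, Lum, Lrat and Col1a1, were called lower, against 3.68% of all genes. Under poly-A scaling 5 stellate markers were below 0, with a median of -0.32, against 0.48 for all genes. The 2 cholangiocyte markers above the floor were higher by under 2-fold.

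Cish and Obp3 kept a ratio below 0 in all 10 ways of processing that gave each a value. Where its brighter probe set was used alone, Cish ranged from -2.07, under quantile normalization, to -1.48, with 64 units added to each signal. Averaging in the second probe set put its mean signal under the floor. Obp3 ranged from -1.83 to -1.34, the last under poly-A scaling. Socs2 ranged from -1.93 to -0.95, the last with 64 units added, and was below 0 in all 10, each resting on a 2/3PH value under the floor. Stat5b was above 0 in all 10, at 0.096 to 0.59. These 10 are not separate checks, since they include the deposited values and removing the floor cannot change a ratio. For Stat5b and Socs2, each with a single probe set, averaging over probe sets and removing suffixes also changed nothing. Since both spike-in scalings move every gene by the same amount, the differences between members did not change under them.

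**Figure D5:**
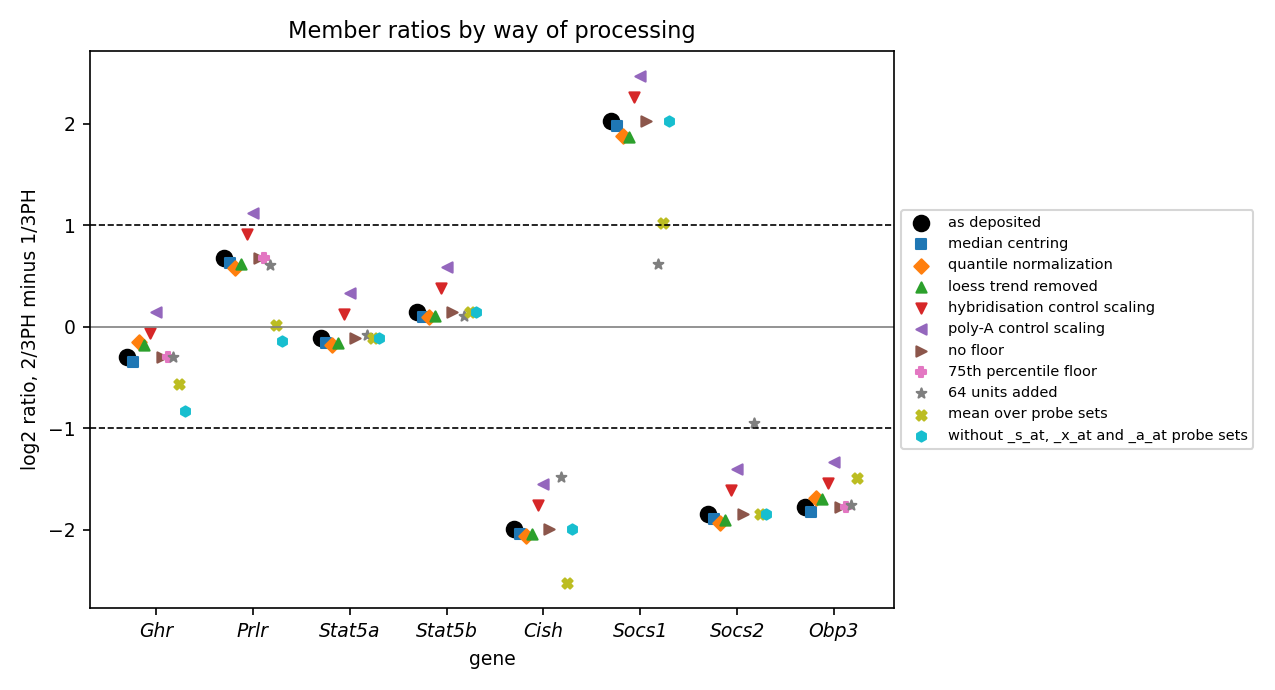
Log2 ratio (2/3PH minus 1/3PH) of each member as deposited (black) and under each alternative way of processing that gave it a value (colours), with dashed lines at 2-fold. Cish, Socs2 and Obp3 stay below 0 throughout, Stat5b and Socs1 above it, and Ghr, Prlr and Stat5a cross it; Socs1 and Socs2 are drawn although their mean signals are under the floor.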

How the data were processed

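RNA of 3 rats was pooled per group and measured on 1 array per group, 1/3PH and 2/3PH, at 24 h. Per the labels' protocols, the authors computed the signal with MAS 5.0 in GeneSpring 11.0, a method that gives 1 signal per probe set and multiplies all signals of an array by the same factor. The deposited values are on a log2 scale, as a check of the numbers showed: the mean of the unlogged signal without the top and bottom 2% was 500.3 on one array and 500.2 on the other. Detection calls were not used here, so a floor took their place. The array's scaling hides any change in total RNA per cell.

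Controls left out, 31042 probe sets remained, of which the platform annotation gave 20826 a single symbol, left 436 ambiguous (unnamed here) and did not list 9780. Entrez identifiers matched to the RefSeq table of GRCr8 changed no symbol. Ratios were 2/3PH minus 1/3PH. Named genes were all 8 members, list genes past 2-fold, and Jak2, Socs3, Igf1, Igfals, Igfbp3, Cyp2c11 and Cyp2c12 whatever their value; Stat3, Ptpn11, Mup5, Gh1, Prl, Alb, Ttr, Epor and Il2ra were added after their values were seen, and Rup2, which RefSeq places outside the alpha-2u globulin cluster, was taken off that list after its values were seen. The members and lists were chosen with earlier results of these data known. Promoters were searched in 300-base RefSeq windows. The calling procedure was tested on simulated data. Alternatives were median centring, quantile normalization, loess, scaling to hybridisation or poly-A controls, no floor, a 75th percentile floor, 64 added units, mean over probe sets, removal of the suffixes _s_at, _x_at and _a_at, and limits of 1.5-fold and 3-fold. Calculations used Python 3.11.15, numpy 2.4.6, pandas 2.3.3 and statsmodels 0.14.6.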

Additional observations from a re-analysis of the deposited data

How the results depend on the processing

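No ratio of a member called at 2-fold reversed. The count of members called lower, 2 as deposited, was 1 with the 75th percentile floor and with probe sets averaged (Cish missed the floor in both) and 1 without the _s_at, _x_at and _a_at probe sets, which left Obp3 without a value. The count called higher, 0 as deposited, was 1 under poly-A scaling and at the 1.5-fold limit (Prlr) and 1 without a floor (Socs1). Without a floor, 3 members were called lower. In the growth hormone signalling list the count called lower, 1 as deposited, was 2 under median centring, quantile normalization, loess and the 1.5-fold limit, and 0 with 64 units added, the 75th percentile floor, poly-A scaling and the 3-fold limit. In the target list the count called lower, 4 as deposited, was 9 at the 1.5-fold limit, 1 at 3-fold and 2 under poly-A scaling, and 1 was called higher without a floor. Of all genes, 350 were called lower and 582 higher as deposited. These were 1145 and 1504 at the 1.5-fold limit, 95 and 213 at 3-fold, 207 and 285 with the 75th percentile floor, 1213 and 1662 without a floor, 210 and 973 under hybridisation control scaling, and 123 and 1599 under poly-A scaling. Where neither fewer genes tested nor the limit itself accounts for a change, the cause was not tested. The spike-in scalings shift every ratio by a constant. No paired analysis was possible because each group had 1 array. Signals near or under the floor, those of Socs1, Socs2, Jak2, Jak3 and the dim Cish probe set, limit what can be said of these genes.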

Other observations

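For each member above the floor, the 3 genes nearest to it in both log2 signals were listed. Over 2 arrays such likeness is a description of levels and differences together, and brightness differs between probe sets for reasons other than abundance. Nearest to Cish were Zfp37 at a distance of 0.13, Gstm7 at 0.17 and Mx1, an interferon response gene, at 0.23. Nearest to Obp3 were Dhtkd1 at 0.15, Idi1, an enzyme of cholesterol synthesis, at 0.19 and Cyp2d3 at 0.21. For Ghr they were Sord, Ndufa3 and Ndufa6, for Prlr Gin1, Casp8 and Cherp, for Stat5a Osgepl1, Zfp629 and Bcl9l, and for Stat5b Zrsr2-ps1, Nudt13 and Dmac2, all within 0.048.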
